A study of Homo sapiens with 6 samples.

Results

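The replication-dependent histone genes of 22Rv1-ABHD5 cells are described here, chosen as every row of the gene count table whose symbol begins with HIST1H, HIST2H, HIST3H or HIST4H. The rule found 73 of the 27470 genes in the table, of which 6 encode linker histone H1, 18 H2A, 20 H2B, 14 H3 and 15 H4, pseudogene rows included. 22Rv1-ABHD5 cells derive from a castration-resistant line of human prostate cancer, infected with a lentiviral vector carrying ABHD5, the coactivator of the triglyceride lipase ATGL, behind a doxycycline (Dox)-inducible promoter and then selected with G418. Control cells (3 libraries) carried the vector and were grown without Dox, and ABHD5-overexpressing (OE) cells (3 libraries) were grown with Dox. Uninfected cells given Dox were not analysed here, so effects of Dox and of ABHD5 cannot be told apart, and the labels do not say whether replicates were separate cultures, so p-values measure the spread between these libraries. RNA was made into 3ʹ mRNA libraries primed at the poly(A) tail.

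Histones package DNA, and their main genes lie in clusters and are transcribed mostly in S phase, when newly copied DNA needs new nucleosomes. Their mRNAs are unusual in ending at a short stem-loop, bound by the protein SLBP, in place of a poly(A) tail. Some of these genes are known to give, in addition, longer polyadenylated transcripts that reach past the stem-loop, above all in cells that have stopped dividing. Poly(A)-primed libraries can therefore miss much of the RNA of these genes, and levels were compared between groups within a gene and not between genes.

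A stem-loop was found after the stop codon of each of the 70 members with a coding model in GENCODE 44 on hg38, by a search for the 16 bases of the conserved histone stem-loop with at most 2 mismatches on the coding strand. The stem-loop began 23 to 68 bases after the stop codon, 66 members matched without a mismatch and 4 had 1 mismatch, and 40 of the 70 shared 1 form of the 16 bases, while that of HIST2H2AC stood in 1 member only. The 26 bases around it are shown for 6 members that the results turn on, with the stem-loop in capitals, read 5ʹ to 3ʹ on the coding strand of hg38.
HIST1H1B: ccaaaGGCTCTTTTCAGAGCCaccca
HIST1H1C: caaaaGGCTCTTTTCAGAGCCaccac
HIST1H1E: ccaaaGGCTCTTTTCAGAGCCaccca
HIST2H2AC: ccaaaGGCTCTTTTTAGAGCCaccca
HIST1H2BK: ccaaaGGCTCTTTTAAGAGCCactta
HIST2H2BE: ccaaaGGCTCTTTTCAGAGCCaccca

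These elements lie on chromosome 6 from 27866792 to 27866817 for HIST1H1B, from 26055739 to 26055764 for HIST1H1C, from 26157090 to 26157115 for HIST1H1E and from 27146361 to 27146386 for HIST1H2BK. They lie on chromosome 1 from 149887386 to 149887411 for HIST2H2AC and from 149886183 to 149886208 for HIST2H2BE. Each lies in the 3ʹ untranslated part of the gene, and the last printed base of HIST1H1C lies just past its annotated end. The printed bases of HIST2H2BE are the same as those of HIST1H1B and HIST1H1E, although HIST2H2BE and these H1 genes moved in opposite directions below.

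Library totals ranged from 3394672 to 7271771 counts on genes, with replicate 3 the deepest library of each group, and 12233 genes passed edgeR's filterByExpr. ABHD5 was at 63.5, 58.0 and 62.8 CPM (counts scaled to library size, after TMM normalization) in the control libraries and 125.9, 130.8 and 91.7 in the OE libraries, with a log2 fold change of 0.91 ± 0.15 (standard error, edgeR's quasi-likelihood test, adjusted p = 1.978e-04). Of all genes tested, 25.5% differed at an adjusted p under 0.05, 11.9% higher (1451 genes) and 13.7% lower (1674 genes) in OE. With library totals alone in place of TMM these counts were 2179 and 1136, and no member tested changed sign. The 8 markers of luminal prostate cancer cells were each detected. The 4 leukocyte markers summed to 3.13 to 5.27 CPM in control and 3.94 to 5.84 CPM in OE, and the 4 fibroblast and endothelial markers to 2.17 to 3.92 CPM and 3.62 to 7.62 CPM, with CD3E and PECAM1 at 0. Reads on no gene took 32.5% to 34.6% of the reads listed in control and 35.6% to 39.5% in OE, without overlap. The part of these shifts in the histone values was not tested.

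Counts summed over the histone members were lower with ABHD5 overexpression, while a pair of H2B genes rose. The 73 members held 18602, 18329 and 25193 counts in the control libraries and 11344, 8256 and 14535 in the OE libraries, which is 0.421% to 0.54% of all counts in control and 0.2% to 0.254% in OE. Summed over members, the level was 4980 ± 652 CPM (SD, n = 3) in control and 2225 ± 286 CPM (SD, n = 3) in OE, a log2 ratio of -1.16. The groups did not overlap, and the lowest control library, replicate 3 with 4398 CPM, stood above the highest OE library, replicate 1 with 2467 CPM. In bulk RNA, fewer cells in S phase and less histone RNA per cell cannot be told apart. A single gene, HIST1H4C, held 59.7% to 64.3% of the members' reads in control and 47.3% to 56.0% in OE. Without it, the sum was 1935 ± 361 CPM in control and 1093 ± 219 CPM in OE (SD, n = 3 each), a log2 ratio of -0.82.

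**Figure D1:**
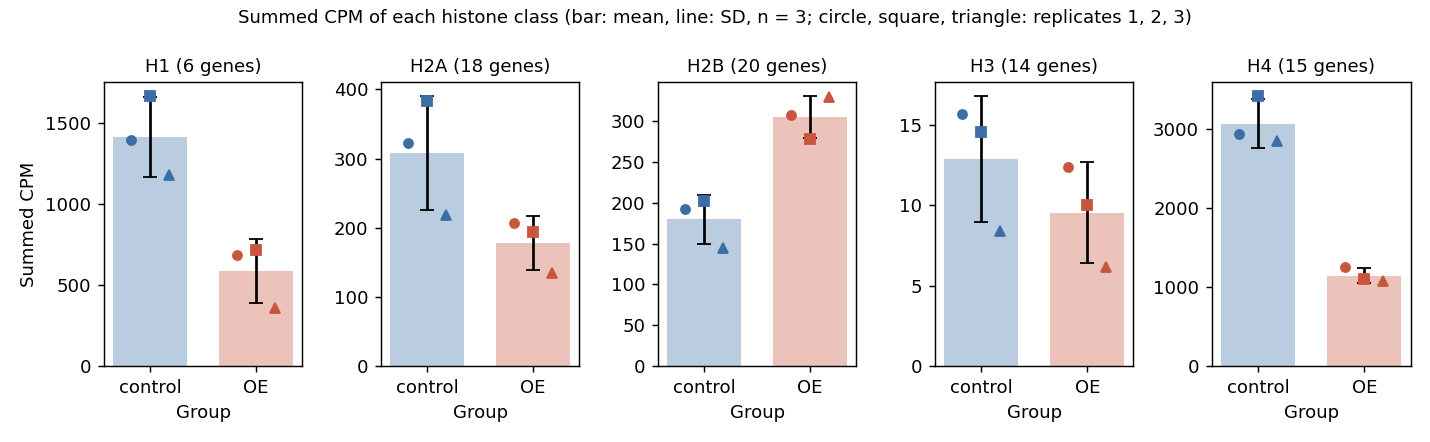
Summed CPM of the members of each histone class in control and OE cells, with bars for the mean, lines for the SD (n = 3) and a point for each library. H1, H2A and H4 were lower in each OE library than in each control library, H2B was higher, and the H3 groups overlapped.

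The classes differed in direction. The H1 sum went from 1415 ± 246 to 588 ± 196.5 CPM, the H2A sum from 308 ± 82.6 to 178 ± 38.8 CPM and the H4 sum from 3065 ± 306.5 to 1144 ± 96.8 CPM (SD, n = 3 each). The H2B sum went the other way, from 179.5 ± 30.1 to 305 ± 26.1 CPM (SD, n = 3 each). Without HIST1H2BK and HIST2H2BE, which were set aside after their values were seen, the H2B sum went from 71.8 ± 15.8 to 43.6 ± 11.4 CPM. The H3 genes had few counts, with a sum of 12.9 ± 3.93 CPM in control and 9.53 ± 3.14 CPM in OE, and their groups overlapped.

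Of the 73 members, 22 passed the filter on low counts and were tested, 19 of them by reaching its level of 2.37 CPM in every library. HIST1H4E reached it in each control library but not in each OE library, and HIST1H3A and HIST1H3C in part of both groups. With p adjusted over every gene tested and a limit of 0.05, 14 of the 22 were lower and 2 higher in OE, where the shares of all genes tested are 13.7% and 11.9%. The median log2 fold change of the 22 was -0.93, beside 0.02 over all genes tested. CPM of the groups did not overlap for 13 members that were lower and 2 that were higher, beside 20.5% and 19% of all genes tested. Without control replicate 2 or without OE replicate 3, the number lower was 9 in each case.

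**Figure D2:**
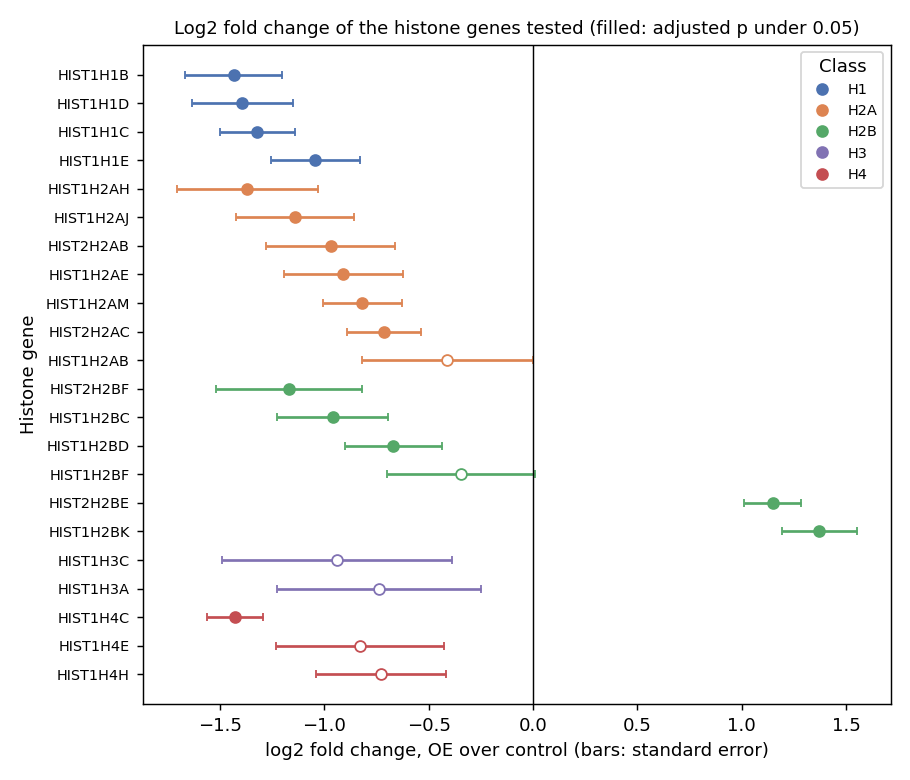
Log2 fold change of OE over control for the 22 members tested, ordered by class, with bars for the standard error and filled points for an adjusted p under 0.05. HIST1H2BK and HIST2H2BE stand on the right of 0 and the other 20 members on the left.

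Linker histones bind the DNA between nucleosomes. Among H1 genes, all 4 that could be tested fell. HIST1H1B, on chromosome 6 from 27866792 to 27867588, was at 443, 575 and 431 CPM in the control libraries and 207, 238 and 94.6 CPM in the OE libraries. Each OE library was below each control library, and OE replicate 3 was the lowest of all. This was a log2 fold change of -1.44 ± 0.23 (SE, edgeR's quasi-likelihood test, adjusted p = 1.989e-04), and it was -1.12 without OE replicate 3.

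HIST1H1C, on chromosome 6 from 26055740 to 26056470, encodes the linker histone H1.2. It was at 499.7, 608 and 417 CPM in control and 231, 237 and 144 CPM in OE, with no overlap. It changed by -1.32 ± 0.18 on the log2 scale (SE, edgeR's quasi-likelihood test, adjusted p = 3.176e-05). HIST1H1E, which encodes H1.4 and lies from 26156329 to 26157115, was at 434, 471 and 318 CPM in control and 242, 235 and 118 CPM in OE. It changed by -1.04 ± 0.21 on the log2 scale (standard error, with an adjusted p of 0.00145 by that test). The counts of HIST1H1D were lower, with 70, 54 and 79 in control and 29, 26 and 40 in OE, and its log2 fold change was -1.39. The other H1 genes were hardly seen: HIST1H1A had no counts and HIST1H1T, a testis-specific H1, had 4 in all.

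HIST1H4C encodes H4, which pairs with H3 at the centre of the nucleosome, and it lies on chromosome 6 from 26103933 to 26104337. Its counts were 11150, 10944 and 16205 in control and 5699, 3905 and 8139 in OE. These were 2912, 3394 and 2829 CPM in control and 1239, 1087 and 1069 CPM in OE, so that the groups stood far apart. The log2 fold change of -1.43 ± 0.13 (SE, edgeR's quasi-likelihood test, adjusted p = 5.19e-07) stayed between -1.50 and -1.35 with each library left out in turn. In GENCODE 44 a long transcript of HIST1H2BC runs over HIST1H4C on the opposite strand, and whether the authors counted by strand is not stated. GENCODE genes without a name also overlap HIST1H1D, HIST1H2BC and HIST1H4H on the opposite strand and HIST1H1E, HIST1H2AE, HIST1H2BD, HIST1H2BF and HIST1H4E on the same strand. The other H4 genes had few counts. HIST1H4E, with a log2 fold change of -0.83, and HIST1H4H, with -0.73, missed the threshold (adjusted p = 0.142 and 0.0952 in turn, edgeR's test).

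HIST1H4C also stood apart in sequence. In the richest window of 20 bases between the start codon and the end of the stem-loop, it had 18 A, while the richest windows of the other 69 members with a coding model had 7 to 13. It was thus the 1 member of 70 (1.43%) with a window of at least 15 A. Of all coding transcripts, 34.8% hold such a window, but members were searched only from the start codon to the stem-loop. The sequence searched was not matched in length or region, so no conclusion is drawn from the difference between these shares. The richest windows of the H1 genes had 12 or 13 A. A run of A within a transcript can be primed by oligo-dT, and whether the reads of HIST1H4C start there was not tested.

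**Figure D3:**
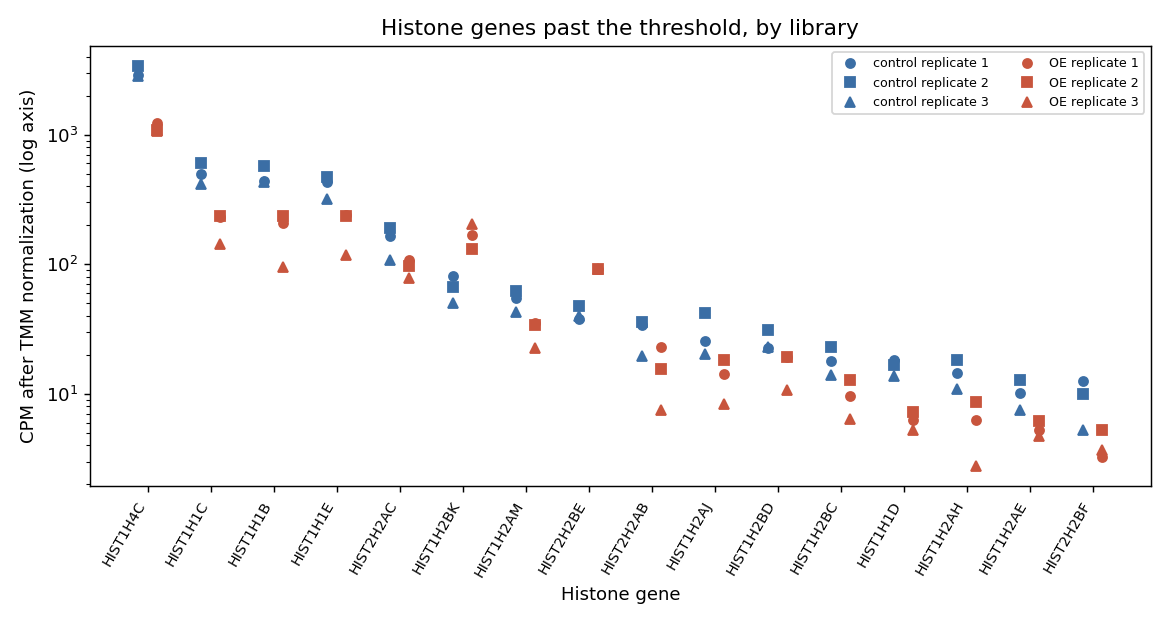
CPM after TMM normalization (log axis) of the 16 histone genes past the threshold in each of the 6 libraries, in the order of their control mean. The OE libraries of HIST1H2BK and HIST2H2BE stand above their control libraries, and those of the other genes stand below, with an overlap in HIST2H2AB and HIST2H2BF.

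H2A and H2B form the dimers on the outer faces of the nucleosome core. Of the 7 H2A genes tested, 6 were lower in OE. HIST2H2AC, on chromosome 1 from 149886918 to 149887411, was at 165, 192 and 109 CPM in control and 107, 96.8 and 78.8 CPM in OE. The groups did not overlap but came close, with control replicate 3 just above OE replicate 1. It changed by -0.72 ± 0.18 on the log2 scale (SE, edgeR's quasi-likelihood test, adjusted p = 0.00639). HIST1H2AM was at 55.4, 62.0 and 43.1 CPM in control and 35.2, 34.0 and 22.5 CPM in OE, a log2 fold change of -0.82. In GENCODE 44 a transcript of HIST1H3J overlaps HIST1H2AM on the same strand.

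HIST1H2AH was at 14.4, 18.3 and 10.8 CPM in control and 6.31, 8.63 and 2.76 CPM in OE, with no overlap. HIST1H2AJ had a log2 fold change of -1.14 and HIST1H2AH one of -1.37 (adjusted p = 0.0064 and 0.00636, edgeR's quasi-likelihood test). The H2A genes with fewer counts were less firm. HIST1H2AE, at -0.91, lost its call without control replicate 1 (adjusted p = 0.0731, same test), control replicate 2 (0.127), OE replicate 1 (0.0684) or OE replicate 3 (0.0761). HIST2H2AB, which overlaps BOLA1 on the opposite strand, changed by -0.97 and lost its call without control replicate 1, control replicate 2 or OE replicate 3 (adjusted p = 0.103, 0.0893 and 0.103, same test) and with DESeq2 (adjusted p = 0.192). Its groups overlapped. HIST1H2AB, with counts of 39, 37 and 20 in control and 32, 31 and 26 in OE, did not pass the threshold (log2 fold change -0.41, adjusted p = 0.506, edgeR's quasi-likelihood test).

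The H2B genes went both ways. HIST1H2BK, on chromosome 6 from 27146361 to 27146855, had 309, 216 and 286 counts in control and 771, 474 and 1569 in OE. This was 80.7, 67.0 and 49.9 CPM in control and 168, 132 and 206 CPM in OE, so that each OE library was above each control library. It changed by 1.37 ± 0.18 on the log2 scale (SE, edgeR's quasi-likelihood test, adjusted p = 2.299e-05), between 1.19 and 1.53 with each library left out in turn.

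HIST2H2BE, on chromosome 1 from 149884459 to 149886682, was the other gene that rose. It was at 37.9, 47.8 and 40.0 CPM in control and 92.6, 92.4 and 92.3 CPM in OE, nearly the same in the 3 OE libraries. This was a log2 fold change of 1.15 ± 0.14 (SE, edgeR's quasi-likelihood test, adjusted p = 8.78e-06), between 1.07 and 1.24 with each library left out in turn. Both genes passed the threshold in each of the 15 other settings tried.

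Of the other 4 H2B genes tested, 3 were lower. HIST1H2BC had a log2 fold change of -0.96, which lost its call without control replicate 2 or OE replicate 3 (adjusted p = 0.0632 and 0.0614, edgeR's quasi-likelihood test). HIST2H2BF had -1.17, with overlapping groups, and lost its call without control replicate 1 (adjusted p = 0.136, same test), control replicate 2 (0.0561), OE replicate 1 (0.0772) or OE replicate 3 (0.0521). HIST1H2BD had -0.67 with an adjusted p of 0.0415, passed the threshold in 6 of 15 other settings and was at -0.40 without OE replicate 3. HIST1H2BF did not pass it (-0.35, adjusted p = 0.518, same test).

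HIST1H2BK and HIST2H2BE each share a promoter region with an H2A gene that moved the other way. All 7 H2A genes tested had negative log2 fold changes, so this direction is not particular to the H2A partners. Among members with coding models, 12 pairs of an H2A and an H2B gene lie head to head on opposite strands, with 303 to 381 bases between their start codons, and in 2 pairs both partners could be tested. HIST1H2BK lies 330 bases from HIST1H2AH. The log2 ratio of HIST1H2BK to HIST1H2AH counts was 2.49, 1.87 and 2.21 in the control libraries and 4.73, 3.93 and 6.22 in the OE libraries, a difference of 2.77. HIST2H2BE lies 334 bases from HIST2H2AC. The log2 ratio of their counts was -2.12, -2.01 and -1.44 in control and -0.214, -0.0679 and 0.229 in OE, a difference of 1.84. In both pairs each OE library had a higher ratio than each control library. This follows from the CPM above, where OE libraries stood higher for each H2B gene and lower for each H2A gene without overlap. The exact permutation test (two-sided) was thus bound to give p = 0.1 for each of the 2 pairs and adds no support. That is the smallest p that 3 against 3 libraries can give, and it stayed 0.1 after adjustment over the pairs. This ratio is taken within a library and does not depend on normalization between libraries.

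**Figure D4:**
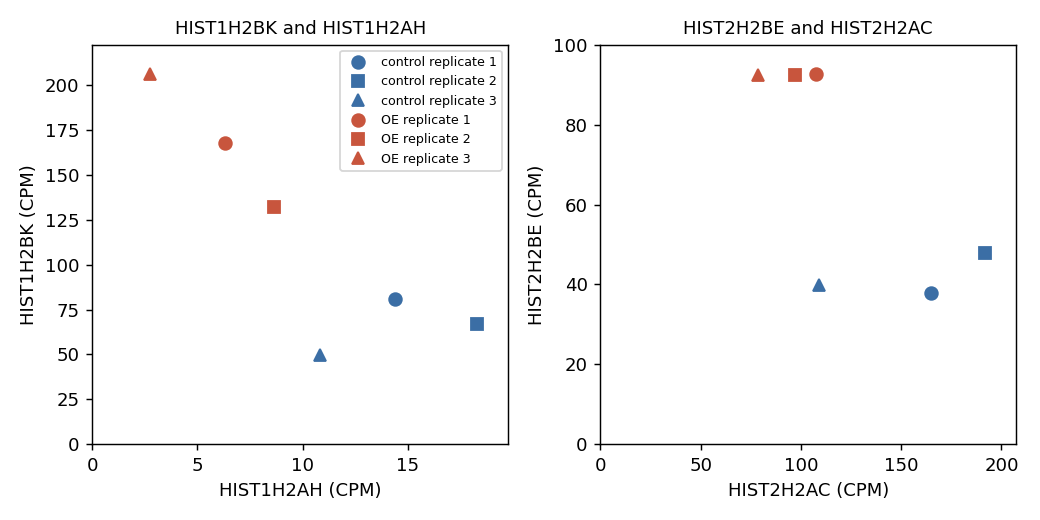
CPM of HIST1H2BK against HIST1H2AH (left) and of HIST2H2BE against HIST2H2AC (right), 1 point for each library. The OE libraries lie above the control libraries on the H2B axis and to their left on the H2A axis in both pairs.

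The 150 bases before the RefSeq start are shown for the H2B genes that rose, for the divergent partner HIST2H2AC and for HIST1H1B, which fell, from RefSeq on GRCh38.p14 and read 5ʹ to 3ʹ on the gene's strand. Capitals mark matches to the TATA box TATAAA, to the CCAAT box, searched as those 5 letters, and to the octamer ATTTGCAT, each on either strand and without overlap between motifs here.
HIST1H2BK: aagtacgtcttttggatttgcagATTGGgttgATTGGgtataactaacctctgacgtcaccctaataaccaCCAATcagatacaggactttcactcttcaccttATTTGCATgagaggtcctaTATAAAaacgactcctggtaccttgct
HIST2H2BE: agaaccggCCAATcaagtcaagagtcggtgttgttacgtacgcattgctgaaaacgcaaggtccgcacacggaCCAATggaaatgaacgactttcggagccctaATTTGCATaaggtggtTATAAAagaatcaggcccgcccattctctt
HIST2H2AC: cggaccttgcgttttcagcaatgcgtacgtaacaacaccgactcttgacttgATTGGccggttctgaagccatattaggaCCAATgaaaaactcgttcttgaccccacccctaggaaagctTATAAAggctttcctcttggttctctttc
HIST1H1B: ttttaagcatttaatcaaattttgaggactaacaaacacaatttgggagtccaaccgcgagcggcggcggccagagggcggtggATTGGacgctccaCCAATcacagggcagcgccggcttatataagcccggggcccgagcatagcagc

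These windows lie at chr6:27146859-27147008, chr1:149886683-149886832, chr1:149886768-149886917 and chr6:27867589-27867738, so those of HIST2H2BE and HIST2H2AC overlap. RefSeq promoter windows of 300 bases, from 250 before to 50 after the start, were matched for 65 of the 73 members. ATTTGCAT, the octamer bound by OCT1, stood in 14 of 18 H2B windows, 11 of 16 H2A windows and none of the 6 H1 windows, beside 1.8% of all promoters. CCAAT stood in each H1, H2A, H2B and H3 window and in 3 of 13 H4 windows, beside 35.7% of all promoters, and TATAAA in 43 of 65 windows, beside 12% of all promoters. In the printed bases both H2B genes that rose hold all 3 motifs. The longer windows of 300 bases of HIST1H2AE, HIST1H2AJ, HIST1H2AM, HIST2H2AB, HIST2H2AC and HIST1H2BC, which were lower, also hold all 3. Windows of divergent partners overlap, so 1 site can count for both genes, as the ATTTGCAT printed for HIST2H2BE does for HIST2H2AC. In the 150 bases before the start HIST2H2AC holds no ATTTGCAT, while HIST1H2AM holds all 3 motifs. A match of letters does not show a bound factor.

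Longer transcripts were annotated for 18 of the 70 members with a coding model, counted as a GENCODE 44 transcript or a RefSeq gene that ends more than 50 bases past the stem-loop. Both genes that rose are among them: the RefSeq gene of HIST1H2BK ends 8073 bases past the stem-loop and the transcript of HIST2H2BE 1729 bases past it. So are HIST1H2BC, HIST1H2BD and HIST2H2BF, which were lower, and HIST1H4H. Thus 2 of the 6 tested members with such an annotation were higher and 3 lower, and 0 of the 16 tested members without it were higher and 11 lower at an adjusted p under 0.05. HIST1H2BK is counted here through RefSeq only, since its GENCODE 44 transcript ends 5 bases past the stem-loop. By GENCODE 44 alone it would be a higher member without such an annotation, so this split depends on the source. The counts in the split were not tested. Which genes carry such an annotation follows the class in part, since 5 of the 6 are H2B genes. The summed level of the 18 members was 178 ± 27.8 CPM in control and 304 ± 25.7 CPM in OE, and that of the other 52 was 4800 ± 629 and 1919 ± 302.5 CPM (SD, n = 3 each). The rise of the first sum lies in HIST1H2BK and HIST2H2BE. The other 4 tested members with such an annotation had negative log2 fold changes. HIST1H4C makes up most of the second sum. Which transcript the counts come from is not recorded in a count table. A poly(A) signal, AATAAA or ATTAAA on the coding strand, stood within 500 bases after the stop codon in 24 of 70 members (34.3%), beside 53.8% of all coding genes, and in neither HIST1H2BK nor HIST2H2BE. The annotated ends of the longer forms of these 2 genes lie beyond this window. The search could therefore not find a signal at those ends.

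The 51 members not tested account for few reads. Of these, 20 had no counts in any library, 5 had at most 3 and 26 had more in at least 1 library, up to 15. The members of this kind with a mean of at least 1 count were HIST1H2AG, HIST1H2AC, HIST1H2AI, HIST3H2A, HIST1H2AL and HIST1H2AK among H2A genes, HIST1H2BO, HIST2H2BC, HIST1H2BN, HIST1H2BB, HIST1H2BL, HIST1H2BM, HIST1H2BJ, HIST3H2BB, HIST1H2BE and HIST1H2BG among H2B genes, HIST1H3D, HIST1H3H, HIST1H3I, HIST1H3B and HIST1H3E among H3 genes, and HIST1H4L, HIST1H4D, HIST1H4J, HIST1H4B and HIST1H4A among H4 genes. Without the filter on low counts, 31 of the 51 could be fitted and 1 passed the threshold, HIST1H4D, with 5, 6 and 14 counts in control and 2, 2 and 3 in OE (log2 fold change -2.05, adjusted p = 0.0439, edgeR's quasi-likelihood test). By the same test HIST1H1B had an adjusted p of 1.16e-22 without the filter, beside 1.99e-04 with it. The call of HIST1H4D therefore does not have the weight of a call made with the filter. For the other 30, no difference was detectable at this depth. A count of 0 allows up to 3 counts, which is 0.413 to 0.884 CPM on library totals, for counting error only. The H3 genes that were tested, HIST1H3A and HIST1H3C, had log2 fold changes of -0.74 and -0.94 and missed the threshold (adjusted p = 0.292 and 0.231, edgeR's quasi-likelihood test).

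Near-identical copies bear on the zeros and on part of the tested members. For 6 members, HIST2H2AA3, HIST2H2AA4, HIST2H3A, HIST2H3C, HIST2H4A and HIST2H4B, every stretch of 100 bases, the read length, from the start codon to the stem-loop was found in another member, and all 6 had no counts in any library. HIST1H4J and HIST1H4K shared 91.6% of such stretches, while 54 members shared none. The tested members that shared a part were HIST1H2AJ, with 69.76%, and HIST2H2AC, HIST2H2BE and HIST2H2BF, with up to 16.18%. How the authors treated reads that fit several places is not stated, and such reads cannot be assigned to 1 copy. The part of such reads in the log2 fold changes of these tested members was not tested. The zeros of these 6 genes are no measure of their expression.

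Replicate 3 stood apart in the histone genes. It was the lowest of the 3 control libraries for 20 of the 22 members tested and the lowest of the 3 OE libraries for 19 of 22, beside 34.2% of all genes tested in either group. The median log2 ratio of replicate 3 to the mean of replicates 1 and 2 was -0.55 in control and -0.73 in OE over the members, and -0.0026 and 0.018 over all genes tested. The drop was small in HIST1H4C, the member with the most reads, with log2 ratios of -0.16 in control and -0.12 in OE. HIST2H2AC shows a drop plainly, with 632, 619 and 623 counts in control libraries whose totals were 3988292, 3394672 and 5988151. The members for which replicate 3 was not the lowest were HIST1H2BD and HIST2H2BE in control and HIST1H2BK, HIST1H3A and HIST2H2BF in OE. HIST1H2BK was lowest in replicate 3 among the control libraries and highest in it among the OE libraries. Replicate 3 is also the deepest library of each group, and the part of depth in this was not tested. With replicates 1 and 2 of each group alone, a setting chosen after seeing the data, 13 members were lower and 2 higher, and the log2 ratio of the sum was -1.14.

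**Figure D5:**
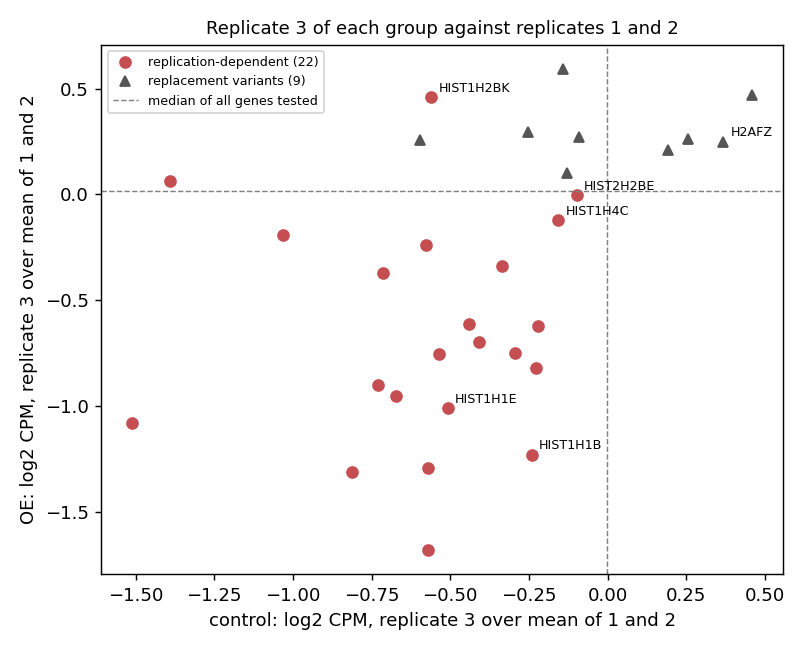
Log2 ratio of CPM in replicate 3 to the mean of replicates 1 and 2 in control (x axis) and OE (y axis) for the 22 replication-dependent members tested and 9 replacement variants. Most members lie below and to the left of the dashed medians of all genes tested, with HIST1H2BK and HIST1H3A above the median on the OE axis, as the 9 replacement variants are.

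Replacement histone variants are encoded outside these clusters, mostly by polyadenylated mRNA, and several can be made outside S phase. Of 12 in the list, 9 were tested, and 6 were lower and 0 higher in OE, beside 13.7% lower and 11.9% higher among all genes tested, with a median log2 fold change of -0.67. H2AFZ, which encodes H2A.Z, was at 2577, 2197 and 3080 CPM in control and 1164, 969 and 1269 CPM in OE. It changed by -1.21 ± 0.15 on the log2 scale (standard error, edgeR's quasi-likelihood test, adjusted p = 1.378e-05). H2AFV, its close relative, had -0.91 and CENPA, the H3 variant of centromeres, -1.19. H1F0, a linker histone known from cells that have stopped dividing, and H2AFX, the H2A variant marked at DNA breaks, were lower as well, with -0.67 and -0.76. H3F3B had -0.37 with an adjusted p of 0.0496, which it kept in 6 of 15 other settings. Replicate 3 was the lowest control library for 3 of these 9 genes and the lowest OE library for none. H3F3A was listed at 0 in every library. It was not in the search for shared stretches, and the treatment of reads that fit several places is not stated. This 0 may therefore not measure its expression.

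Histone mRNA is cut by machinery that is only in part its own. Of 18 genes for histone gene transcription and 3ʹ end processing, all tested, 6 were lower and 0 higher, beside 13.7% and 11.9% of all genes tested. SLBP, the stem-loop binding protein, was at 182, 166.5 and 200 CPM in control and 132, 105 and 131 CPM in OE, with no overlap. It changed by -0.58 ± 0.13 on the log2 scale (SE, edgeR's quasi-likelihood test, adjusted p = 0.00353). NPAT, the factor that switches on histone genes at the start of S phase, had 0.37 and did not pass the threshold (adjusted p = 0.0848, same test). The others that fell with the smallest adjusted p were SNRPG, with -0.73, and SNRPB, with -0.53, which encode Sm proteins that also serve in splicing.

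Of 9 tested genes for translation and decay of histone mRNA, 1 was higher, XRN1, an exonuclease, with a log2 fold change of 0.41, and it lost its call without any 1 of 5 libraries, all but OE replicate 3. Among 15 tested genes for cleavage and polyadenylation of other mRNAs, RBBP6 was higher, with 0.44, and CPSF4 lower, with -0.53. Their median log2 fold change was -0.09. Over all genes tested, 25.5% passed the threshold in either direction. RBBP6 lost its call without control replicate 1, control replicate 2 or OE replicate 2, and CPSF4 without control replicate 1.

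Histone chaperones carry new histones to DNA. Of 21 in the list, all tested, 9 were lower and 1 higher, against shares of 13.7% and 11.9% over all genes, with a median log2 fold change of -0.32. HJURP, the chaperone of CENPA, had -1.12, ASF1B, the H3 and H4 chaperone of dividing cells, -1.25, and SSRP1, a subunit of the FACT complex, -0.78 (adjusted p = 4.185e-06, 9.46e-06 and 2.141e-04, edgeR's quasi-likelihood test). ATRX, which works with DAXX in placing H3.3, rose by 0.61 on the log2 scale, and ASF1A, the relative of ASF1B, had 0.03 and did not pass the threshold (adjusted p = 0.938, same test).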

How the data were processed

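The authors prepared QuantSeq 3ʹ mRNA libraries (the labels name the FWD kit and the paper's methods the REV kit), aligned reads of 100 bases by STAR (hg38) and deposited a table of unscaled counts, 1 row for each symbol. The labels also name CASAVA 1.8.2, FastQC, HTSeq and edgeR, without roles. Which annotation was used, and whether reads were counted by strand, is not given in the sources used here, nor is the time with Dox. The authors also deposited normalized values per library (a signal, scaled in a way not given), used here as an alternative with a pseudocount of 1. Rows that name no gene were left out (reads on no gene and ambiguous reads, the latter 3.05% to 3.37% of those listed).

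Counts of 27470 genes in 6 libraries were tested with edgeR 4.0.16 (filterByExpr, TMM, quasi-likelihood test, Benjamini-Hochberg adjustment over 12233 genes, adjusted p under 0.05) in R 4.3.3, without covariates, and checked on simulated data. Standard errors are the log2 fold change over the root of the F statistic. DESeq2 1.42.0 and limma 3.58.1 served as alternatives, beside other normalizations, filters, the omission of each library and a replicate block. Each pair of replicates differed by more than sampling noise (chi-square per degree of freedom 4.07 to 11.3).

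The members and gene lists were chosen with earlier results of these data known. Every tested member was named. From the other lists SLBP, NPAT and the called genes of lowest adjusted p (at most 3 each way) were named. ASF1A and the remaining replacement variants were named after their values were seen. All 73 symbols were matched to RefSeq (GRCh38.p14) through its synonyms. Levels of the prostate markers are not reported here. Coordinates are 1-based on hg38, from GENCODE 44.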

Additional observations from a re-analysis of the deposited data

How the results depend on the processing

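The 2 members that were higher stayed 2, and the log2 ratio of the members' sum stayed between -1.25 and -1.04, in each of the 15 other settings (8 of normalization, filter, tool or pairing, 6 with a library left out and 1 added after seeing the data). No member changed sign. Of 327 values for single members, 302 kept their side of the threshold, 24 lost the call and 1 gained it. The number of members lower was 14, and 9 to 14 with each library left out. Depth limits the members with few counts. Of the 51 that did not pass the filter, 31 could be fitted without it, which gave 53 members tested and 15 lower, with HIST1H4D added, and the other 20 had no counts.

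Calls in the short lists moved more. Genes for translation and decay of histone mRNA past the threshold numbered 1, but 2 with upper-quartile normalization, 3 under library totals alone, 2 with the replicate block and 2 with replicates 1 and 2 only, and 0 to 2 with each library left out. Those for cleavage and polyadenylation of other mRNAs numbered 2, and 0 to 2 with each library left out. The causes were not tested. The number of all genes called was 3125 and 2181 to 3112 with each library left out. Under library totals alone the median of all genes moved from 0.016 to 0.138 and that of the members was -0.80.

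Libraries that share a replicate number were not treated as pairs, since their deviations from the group means had r of -0.011, 0.25 and 0.086 across genes, which are not independent. These r are over all genes and do not describe the histone members, for most of which replicate 3 was the lowest library in both groups. With the replicate block 16 members passed the threshold, 14 of them lower, as without it, and 3537 genes in all.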
